A study of Mus musculus with 12 samples.

Results

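The enzymes that degrade cyclic AMP (cAMP) and the transcription factors of the CREB family were followed in cardiac macrophages (Mφ) from isoproterenol-infused mice. The set was given by gene name and holds 10 genes, of which 7 encode phosphodiesterases (Pde2a, Pde3b, Pde4a, Pde4b, Pde4d, Pde7a and Pde8a) and 3 encode CREB family factors (Crem, Creb1 and Atf1). All 10 were found among the 24445 gene symbols of the count files, and all 10 were among the 14608 genes with enough counts to be tested.

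The Mφ were sorted from hearts of adult male C57BL6/J mice as CD14+/CD64+ cells, and 1 RNA library was sequenced per mouse. Ct mice (n = 4) carried a saline pump, ECH mice (n = 4, early concentric hypertrophy) an isoproterenol pump at 30 mg/kg/day for 14 days, and HF mice (n = 4, heart failure) a pump of the same dose for 28 days. How long each saline pump ran is not stated for single Ct mice, and no transgene or deletion was involved. From running numbers in the library labels, 2 sets of 6 were inferred. They are called here label set A (Ct 1 to 4 with ECH 1 and 2) and label set B (HF 1 to 4 with ECH 3 and 4). The numbers alone do not fix this division and also allow others, such as Ct 1 to 4 with HF 1 and 2. Neither the labels nor the methods call these sets batches. In the division used here HF and Ct share no set, so for that comparison the set and the condition cannot be told apart. A prefix in the sample titles, whose meaning is not stated, is shared by Ct 1 and 2 (C19), by Ct 3 and 4 (C24), by ECH 3 and 4 (C23) and by HF 1 and 2 (C13).

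Totals ran from 88466559 to 111180291 counts per library, and genes with at least 1 count from 13600 (HF 1) to 15940 (ECH 4), with Ct 2 at 14489. All 10 macrophage markers had counts in each of the 12 libraries, with a summed level of 25132 to 35828 CPM (counts scaled to a common library size, here by the TMM method), and Cd14 and Fcgr1 (which encodes CD64) averaged 2537 and 120.3 CPM in Ct. Markers of other cells were far lower in sum, at 47.3 to 547 CPM for B cells, 7.92 to 125 for T and NK cells, 131 to 1634 for neutrophils, 29.9 to 469 for fibroblasts, 34.5 to 115 for endothelial cells, 4.55 to 20.1 for mural cells, 97.4 to 229 for dendritic cells and 80.9 to 305 for cardiomyocytes. By group (Ct, ECH and HF in this order), the B cell sum ran from 124 to 547, 47.3 to 96.4 and 63.7 to 96.6 CPM, the T and NK cell sum from 27.6 to 125, 7.92 to 41.7 and 18.9 to 41.5, the neutrophil sum from 346 to 1634, 191 to 527 and 131 to 1266, the cardiomyocyte sum from 116 to 305, 104 to 199.7 and 80.9 to 140.2, and the fibroblast sum from 29.9 to 195, 90.7 to 469 and 82.4 to 250.4. Against Ct, the fitted level was lower in ECH and in HF for 7 and 7 of 7 B cell, 9 and 9 of 9 T and NK cell, 7 and 8 of 8 neutrophil and 9 and 10 of 10 cardiomyocyte markers, and higher for 7 and 8 of 8 fibroblast markers. Their part in the results below was not tested.

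Isoproterenol activates β-adrenergic receptors, which act through the stimulatory G protein on adenylyl cyclases and so raise cAMP. Cyclic AMP activates protein kinase A and the exchange factors EPAC, and protein kinase A phosphorylates CREB, which drives genes that carry the cAMP response element (CRE). Phosphodiesterases end the signal by hydrolysing cAMP and are set apart by their affinity and by what controls them, and in Mφ raised cAMP is known to restrain the release of inflammatory cytokines.

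The promoters of the genes were read for the CRE, because CREB family factors bind it and because Pde4b and Crem are textbook cAMP-induced genes. RefSeq windows of 300 bases (250 before to 50 after a start, build GRCm38.p6) were at hand for 7 of the 10 genes and gave 16 windows, since several genes have more than one start. The windows of Pde3b, Pde7a and Crem were not used here. The full CRE, TGACGTCA, was in 0 of the 16 windows and in 1.79% of all 32851 RefSeq windows. The short form of the CRE, TGACG or its reverse complement CGTCA (so both strands were read, and a full CRE counts as a short form too), was in 5 of 16 windows, 1 each for Pde2a, Pde4a, Pde4b, Pde8a and Atf1, against 20.8% of all windows. A list of 16 CREB target genes, drawn up from textbook roles and so not blind to known CREs, had windows for 12 genes. Of their 13 windows, 3 held the full CRE and 13 a short form. Creb1 and Pde4d, with 1 window each, held neither. The 250 bases before the start are shown for Pde4b (1 of its 4 windows) and Pde8a, which lie in opposite directions in the comparisons below, and for Atf1, the CREB factor with the highest level per exon length, with the short form in capitals. They lie on the plus strand at chr4:102421305-102421554, chr7:81213015-81213264 and chr15:100227609-100227858, and the short form begins 34, 84 and 90 bases before the start, respectively.
Pde4b: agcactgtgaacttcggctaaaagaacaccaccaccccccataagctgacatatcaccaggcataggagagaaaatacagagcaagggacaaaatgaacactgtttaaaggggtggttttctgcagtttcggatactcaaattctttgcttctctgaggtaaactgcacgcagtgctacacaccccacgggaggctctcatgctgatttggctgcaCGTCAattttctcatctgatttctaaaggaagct
Pde8a: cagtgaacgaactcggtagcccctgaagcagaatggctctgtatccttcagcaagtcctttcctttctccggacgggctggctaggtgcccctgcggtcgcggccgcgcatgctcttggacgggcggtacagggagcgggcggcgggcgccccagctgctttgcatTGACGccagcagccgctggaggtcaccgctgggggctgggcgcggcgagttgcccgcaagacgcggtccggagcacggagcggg
Atf1: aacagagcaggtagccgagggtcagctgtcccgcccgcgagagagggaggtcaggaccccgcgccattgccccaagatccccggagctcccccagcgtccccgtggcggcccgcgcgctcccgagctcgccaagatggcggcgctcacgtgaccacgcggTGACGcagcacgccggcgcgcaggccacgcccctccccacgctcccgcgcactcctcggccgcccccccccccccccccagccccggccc

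Across the 12 libraries, levels per kilobase of exon (RPKM, taken from CPM and the GENCODE M21 exon length) fell into tiers. That length joins the exons of all annotated transcripts of a gene, and which of them these Mφ use was not tested. It is 13742 bases for Creb1 and 3060 for Atf1, so the order of these genes by RPKM differs from that by CPM. Pde3b, the cGMP-inhibited enzyme through which insulin lowers cAMP, averaged 14.1 ± 2.70 RPKM (SD, n = 12), Pde4b, a rolipram-sensitive enzyme of myeloid cells, 12.7 ± 3.37 RPKM, and Atf1, a close relative of CREB1, 12.2 ± 1.80 RPKM. These 3 could not be put in order beyond their spread, since Pde3b was above Pde4b in 9 of 12 libraries and Pde4b above Atf1 in 5 of 12. Atf1 was above the next gene, Pde2a, in 12 of 12 libraries. Pde2a, the cGMP-stimulated enzyme, averaged 6.28 RPKM, Crem 5.92, Creb1 5.10 and Pde8a 5.01, and neighbours among these 4 changed places in 4 or more libraries. Pde7a at 2.57 RPKM, Pde4a at 1.53 and Pde4d at 0.298 followed, with Pde4a above Pde4d in 12 of 12 libraries. Pde4d, a main enzyme of cardiomyocytes, had the lowest level of the 7 enzymes, with between 59 and 745 counts per library.

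**Figure D1:**
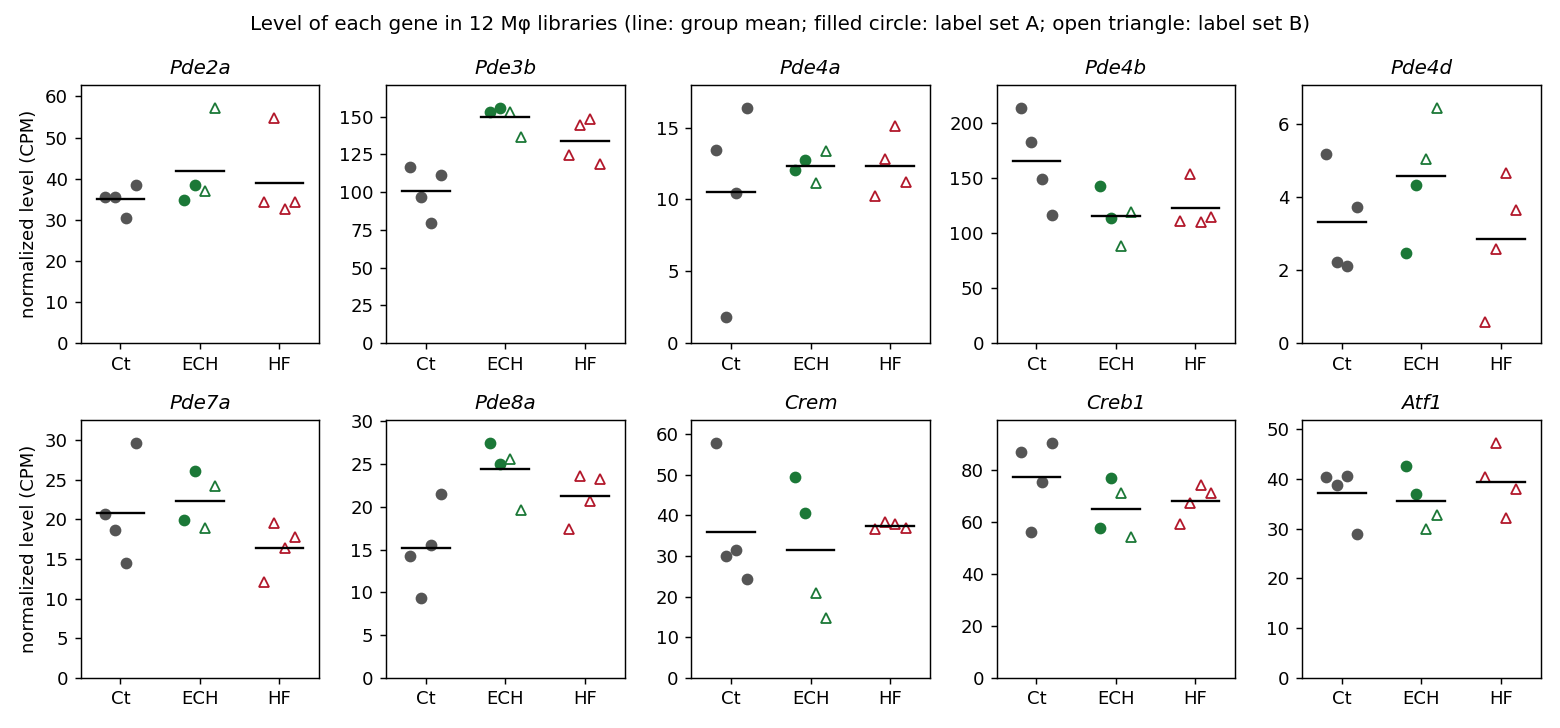
Normalized level (CPM, y axis from 0) of each of the 10 genes in the 4 Ct, 4 ECH and 4 HF libraries, with a line at each group mean; filled circles are label set A and open triangles label set B. Pde3b lies higher in the 8 isoproterenol libraries than in the 4 Ct libraries, and Crem spreads from 14.7 to 49.4 CPM in ECH but only from 36.7 to 38.3 CPM in HF.

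Pde3b (chr7:114415281-114539251, plus strand, GRCm38) was the gene with the clearest separation. Its level was 116, 96.5, 79.6 and 112 CPM in Ct 1 to 4, 153, 156, 153 and 136 CPM in ECH 1 to 4, and 124, 144, 149 and 118 CPM in HF 1 to 4. The lowest isoproterenol library, HF 4 at 118 CPM, was above the highest Ct library, Ct 1 at 116 CPM, so that neither ECH nor HF overlapped with Ct, while ECH and HF overlapped with each other. In sorted pools of this kind, a different number of cells of one type and a different amount of RNA per cell cannot be told apart. Pde3b averaged 101 ± 16.6 CPM (SD, n = 4) in Ct, 149.7 ± 8.99 in ECH and 134 ± 14.7 in HF. In ECH vs Ct the fitted log2 difference was 0.57 ± 0.14 (SE), or 1.48-fold, with an unadjusted p of 0.00114 and an adjusted p of 0.0996 in edgeR's quasi-likelihood test over all genes. In HF vs Ct it was 0.41 ± 0.14, or 1.33-fold, with an adjusted p of 0.19. Both comparisons use the same 4 Ct libraries. Among all genes tested, 4.33% had ECH libraries all above Ct and 4.59% had HF libraries all above Ct, and of the 10 genes here 1 did so in each, Pde3b. Within label set A alone, the 2 ECH libraries, at 153 and 156 CPM, also lay above the 4 Ct libraries, with a log2 difference of 0.60 and an adjusted p of 0.795, the highest of the range of 0.00675 to 0.795 over the alternatives.

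Pde8a (chr7:81213596-81334533, plus strand), a high-affinity enzyme for cAMP that does not respond to rolipram, was higher on average after isoproterenol too. It measured 14.3, 9.37, 15.5 and 21.4 CPM in Ct, 27.4, 25.0, 25.6 and 19.7 CPM in ECH, and 17.4, 23.6, 20.6 and 23.3 CPM in HF. In ECH, 3 of the 4 libraries were above each Ct library, but ECH 4 lay below Ct 4, so the groups overlapped. Means were 15.2 ± 4.96 CPM in Ct, 24.4 ± 3.34 in ECH and 21.2 ± 2.90 in HF (SD, n = 4 each). The log2 difference was 0.69 ± 0.23 (SE) in ECH vs Ct (1.61-fold, unadjusted p = 0.011, adjusted p = 0.25 in edgeR) and 0.49 ± 0.23 in HF vs Ct (adjusted p = 0.33). The lowest value came from Ct 2, the Ct library with the fewest genes detected, and without it the HF vs Ct difference was 0.31. Without Ct 2 and HF 1 the ECH vs Ct difference was 0.51. A processed pseudogene overlaps Pde8a on the opposite strand, and it is not stated whether reads were counted by strand; the same holds for Pde4d, Pde7a and Crem, which also overlap genes of the opposite strand.

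Pde4b (chr4:102087543-102607259, plus strand) was the only enzyme lower on average in both isoproterenol groups. Its level was 213, 183, 149 and 117 CPM in Ct, 143, 113, 87.7 and 119 CPM in ECH, and 111, 153, 110.0 and 115 CPM in HF. Ct 1 and Ct 2, which share a title prefix, stood above all other libraries, and Ct 4 lay within the range of both isoproterenol groups. Means were 166 ± 41.7 CPM in Ct, 116 ± 22.6 in ECH and 122 ± 20.8 in HF (SD, n = 4 each). The log2 difference was -0.52 ± 0.20 (SE) in ECH vs Ct (0.699-fold, unadjusted p = 0.0221, adjusted p = 0.317 in edgeR) and -0.44 ± 0.20 in HF vs Ct (unadjusted p = 0.0463, adjusted p = 0.302). The HF vs Ct difference was -0.29 without Ct 1 and -0.13 with the label set as a covariate.

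Genes that tissue dissociation is known to induce were read beside Pde4b. The summed level of 14 such genes (Fos, Jun, heat shock genes and others) was 37972 to 51637 CPM in Ct, 16122 to 38392 CPM in ECH and 19216 to 32424 CPM in HF, and all 14 were lower on average in ECH and in HF than in Ct, 8 and 7 of them with an unadjusted p under 0.05 and 0 called in edgeR. Of all 14608 genes tested, 7141 were lower in ECH and 7473 in HF, and 5.89% and 8.72% were lower with an unadjusted p under 0.05. The sums were 51637, 41640, 37972 and 38261 CPM in Ct 1 to 4, 38392, 27883, 16122 and 24034 CPM in ECH 1 to 4, and 32424, 31723, 19216 and 23044 CPM in HF 1 to 4. Both the sum and Pde4b were highest in Ct 1, followed by Ct 2, and lowest in ECH 3, with the other libraries in partly different order. The part of this list in the values of Pde4b, Pde3b and Pde8a was not tested.

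**Figure D2:**
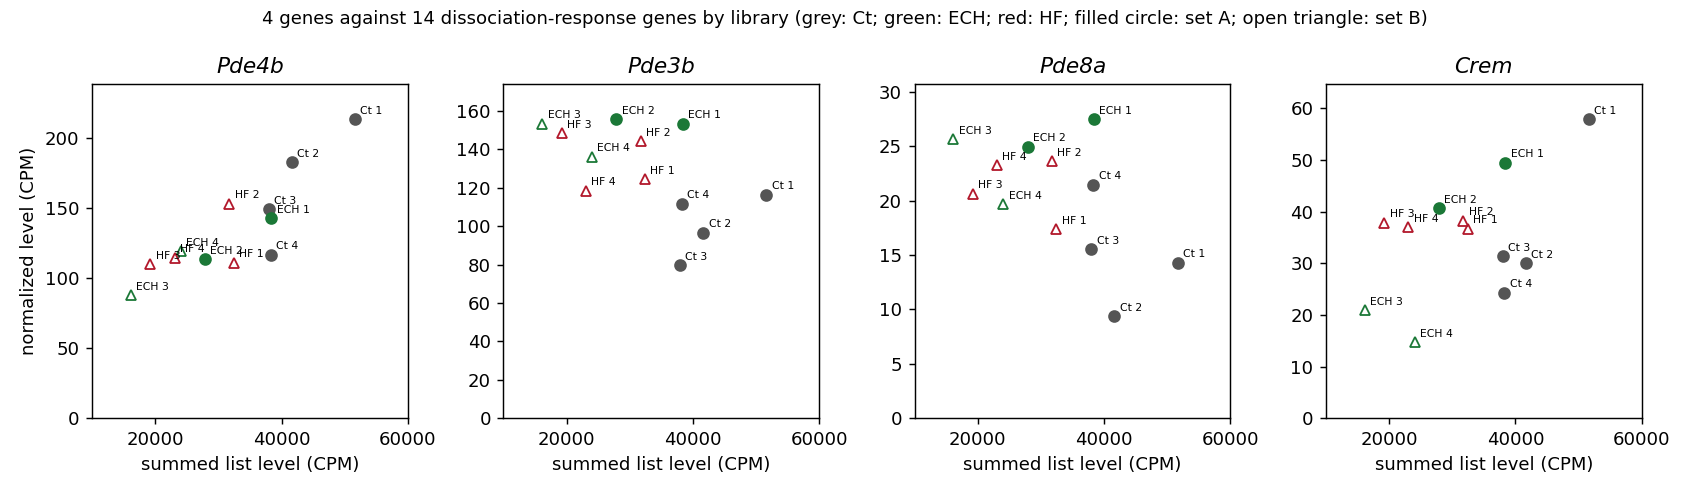
Level of Pde4b, Pde3b, Pde8a and Crem (CPM, y axes from 0) against the summed level of 14 dissociation-response genes (CPM, x axis) in each of the 12 libraries; colours give the group, filled circles label set A and open triangles label set B. Pde4b is highest in Ct 1 and lowest in ECH 3, the libraries with the highest and lowest sums, and Crem in HF stays between 36.7 and 38.3 CPM over sums of 19216 to 32424 CPM.

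The other 4 enzymes had no unadjusted p under 0.05 in any comparison. Pde2a was at 35.5, 35.5, 30.5 and 38.5 CPM in Ct, 34.7, 38.5, 37.0 and 57.1 CPM in ECH, and 34.4, 54.9, 32.6 and 34.2 CPM in HF. One library in each isoproterenol group, ECH 4 and HF 2, stood above the rest, which otherwise shared a narrow range, and the log2 difference was 0.26 ± 0.20 in ECH vs Ct and 0.16 ± 0.20 in HF vs Ct. Without ECH 4 the first was 0.071 and without HF 2 the second was -0.052, and with the label set as a covariate they were 0.066 and -0.20. Pde2a overlaps a coding gene model of the same strand, Gm45837, and reads in the overlap are uncertain.

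Pde4a, another rolipram-sensitive enzyme, was at 13.4, 1.83, 10.5 and 16.3 CPM in Ct, 12.1, 12.7, 11.1 and 13.4 CPM in ECH, and 10.2, 12.8, 15.1 and 11.2 CPM in HF. All libraries but Ct 2 lay between 10.2 and 16.3 CPM. The log2 differences of 0.23 ± 0.45 in ECH vs Ct and 0.23 ± 0.45 in HF vs Ct rested on Ct 2, without which they were -0.12 and -0.12.

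Pde4d was at 5.19, 2.21, 2.12 and 3.74 CPM in Ct, 2.46, 4.33, 5.06 and 6.44 CPM in ECH, and 0.565, 2.57, 4.66 and 3.64 CPM in HF. A processed pseudogene of the same strand, Rps3a3, overlaps Pde4d. The groups overlapped throughout, with a log2 difference of 0.46 ± 0.58 in ECH vs Ct and -0.22 ± 0.57 in HF vs Ct. HF 1, the library with the fewest genes detected, had 59 counts, and without it the HF vs Ct difference was 0.13, without HF 3 it was -0.56 and with the label set as a covariate -0.97. The ECH vs Ct difference was 0.77 without Ct 1, 0.25 without ECH 4 and 0.036 with the label set as a covariate. Pde7a, another rolipram-insensitive enzyme and known from T cells, was at 20.7, 18.7, 14.4 and 29.6 CPM in Ct, 19.9, 26.1, 18.9 and 24.3 CPM in ECH, and 12.2, 19.5, 16.3 and 17.8 CPM in HF. In HF, 3 libraries lay below each ECH library and HF 2 among them. Pde7a gave 0.096 ± 0.23 in ECH vs Ct and -0.34 ± 0.23 in HF vs Ct, and HF vs ECH gave -0.44 ± 0.23 (SE) on the log2 scale with an adjusted p of 0.671 in edgeR, the lowest of the 10 genes in that comparison. Without Ct 4, the highest Pde7a library, the HF vs Ct difference was -0.13.

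As a composition, Pde4b and Pde3b made up most of the phosphodiesterase RPKM and exchanged rank between the groups. By RPKM, Pde4b was above Pde3b in 3 of 4 Ct libraries. Pde3b was above Pde4b in 4 of 4 ECH and 4 of 4 HF libraries. This order depends in part on the exon lengths used, 10.6 kb for Pde4b and 9.11 kb for Pde3b. In CPM, Pde4b was above Pde3b also in Ct 4 (117 against 112 CPM) and in HF 2 (153 against 144 CPM). Pde4b held 38.6 ± 8.05% of the summed RPKM of the 7 enzymes in Ct, 24.2 ± 3.62% in ECH and 27.6 ± 1.84% in HF (SD, n = 4 each). Pde3b held 27.3 ± 1.99% in Ct, 36.5 ± 3.19% in ECH and 35.3 ± 3.34% in HF. The Pde3b share was 24.9 to 29.8% in Ct, below the 32.6 to 40.3% of ECH and the 32.0 to 39.2% of HF, while the Pde4b share of Ct 4, 26.9%, was within the isoproterenol ranges. Pde8a held 9.32 ± 3.16% in Ct, 13.4 ± 1.99% in ECH and 12.6 ± 1.41% in HF, and Pde2a between 14.1 and 15.1% on average in each group. These shares are descriptions of the levels above and were not tested apart from them.

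**Figure D3:**
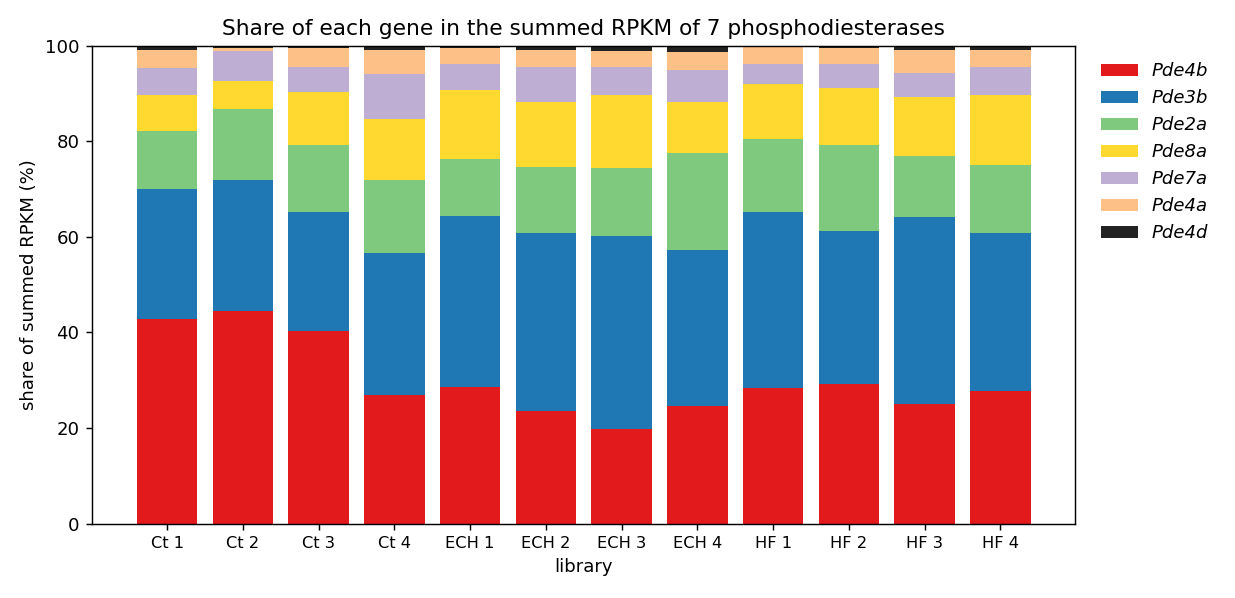
Share (%) of each of the 7 phosphodiesterases in their summed RPKM, 1 stacked bar per library. The Pde4b part (bottom) is larger than the Pde3b part in Ct 1, 2 and 3, and the Pde3b part is the larger in Ct 4 and in the 8 isoproterenol libraries.

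Among the transcription factors, Crem was the one whose libraries disagreed most. CREM yields activators and, from an internal start, the inducible repressor ICER, and counts per gene add these products together. Crem was at 57.8, 30.0, 31.4 and 24.3 CPM in Ct, 49.4, 40.7, 20.9 and 14.7 CPM in ECH, and 36.7, 38.3, 37.8 and 37.0 CPM in HF. The 4 HF libraries differed little, with a coefficient of variation of 1.92%, against 41.6% in Ct and 52.0% in ECH, and they lay inside the range of both other groups. Over all libraries the log2 difference was -0.19 ± 0.35 (SE) in ECH vs Ct, 0.061 ± 0.35 in HF vs Ct and 0.25 ± 0.35 in HF vs ECH (adjusted p = 0.879, 0.955 and 0.934 in edgeR).

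In the inferred division, the 2 high ECH libraries of Crem belong to label set A and the 2 low ones to label set B. The low ones, ECH 3 and 4, also share a title prefix, so the prefix and the label set cannot be told apart within ECH. When only label set B was fitted, the 4 HF libraries (36.7 to 38.3 CPM) were above ECH 3 and 4 (20.9 and 14.7 CPM) by a log2 difference of 1.08 ± 0.18 (SE), or 2.11-fold, with an adjusted p of 0.0186 in edgeR (0.0186 to 1 over the alternatives), a value that rests on those 2 ECH libraries. That fit called 2.49% of 14864 genes, and Crem was the 1 call among the 10 genes. In label set A, ECH 1 and 2 (49.4 and 40.7 CPM) were compared with Ct (24.3 to 57.8 CPM) and gave 0.32, the opposite sign to the fit over all libraries. With the set as a covariate Crem gave 1.07 in HF vs ECH (adjusted p = 0.087) and 1.40 in HF vs Ct (adjusted p = 0.12, and 0.12 to 0.999 over the alternatives), the latter through the ECH libraries alone. The sum of the dissociation-response list in ECH 1 to 4 was 38392, 27883, 16122 and 24034 CPM, so that it too was lower in the set B libraries, and its part was not tested.

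Creb1, the founding CREB factor, was at 87.1, 56.1, 75.5 and 90.4 CPM in Ct, 57.8, 76.9, 71.2 and 54.4 CPM in ECH, and 59.2, 67.3, 74.2 and 71.3 CPM in HF. The groups overlapped, with Ct 1 and Ct 4 on top and Ct 2 near the bottom, and the log2 difference was -0.25 ± 0.17 in ECH vs Ct and -0.18 ± 0.17 in HF vs Ct. Without Ct 2 these were -0.37 and -0.31, without Ct 4 they were -0.16 and -0.099, and with the label set as a covariate the second was -0.083. Atf1 was at 40.5, 38.9, 40.7 and 28.9 CPM in Ct, 42.7, 37.1, 30.0 and 32.8 CPM in ECH, and 40.4, 47.2, 32.2 and 38.0 CPM in HF. Its groups overlapped throughout and its log2 differences were -0.064 ± 0.17 in ECH vs Ct and 0.084 ± 0.17 in HF vs Ct, the latter 0.43 with the label set as a covariate. Of the summed RPKM of the 3 factors, Atf1 held 51.3% in Ct, 54.3% in ECH and 53.1% in HF, and Creb1 23.9, 22.4 and 20.6%. These shares rest on the exon lengths. In CPM, Creb1 averaged 77.3, 65.1 and 68.0 in Ct, ECH and HF, above Atf1 at 37.2, 35.6 and 39.5.

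As a whole, 0 of the 10 genes passed an adjusted p under 0.05 with a change of at least 2-fold in edgeR, in any of the 3 comparisons. Over all genes tested this rule called 0.356% in ECH vs Ct, 0.377% in HF vs Ct and 0% in HF vs ECH. By DESeq2, the edgeR likelihood ratio test and limma-voom the count was 0 of 10 as well, and an adjusted p under 0.05 was reached by Pde3b in ECH vs Ct with DESeq2 (0.00675) and the likelihood ratio test (0.0176), below 2-fold in both. At an unadjusted p under 0.05, 2 genes were higher in ECH vs Ct (Pde3b and Pde8a, against 6.03% of all genes) and 1 was lower (Pde4b, against 5.89%). In HF vs Ct, 1 was higher (Pde3b, against 7.35%) and 1 lower (Pde4b, against 8.72%), and in HF vs ECH 0 were higher (against 2.81%) and 0 lower (against 5.17%). Groups without overlap and lower than Ct were found for 0 of the 10 in ECH (3.64% of all genes) and in HF (4.45%), and in HF vs ECH 0 lay apart in either direction (3.36% higher and 3.56% lower over all genes). The median log2 difference of the 10 genes was 0.16 in ECH vs Ct, 0.073 in HF vs Ct and -0.050 in HF vs ECH, beside 0.010, -0.015 and -0.018 over all genes tested. Split by role, 6 of the 7 phosphodiesterases and 0 of the 3 factors were higher in ECH vs Ct, 4 and 2 in HF vs Ct, and 2 and 3 in HF vs ECH, beside 7467, 7134 and 7016 of the 14608 genes tested. In HF vs ECH the log2 differences ran from -0.68 (Pde4d) to 0.25 (Crem). Pde4d gave -1.02 without HF 3 and -0.34 without HF 1, and Crem 0.017 without ECH 4 and 0.56 without ECH 1.

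**Figure D4:**
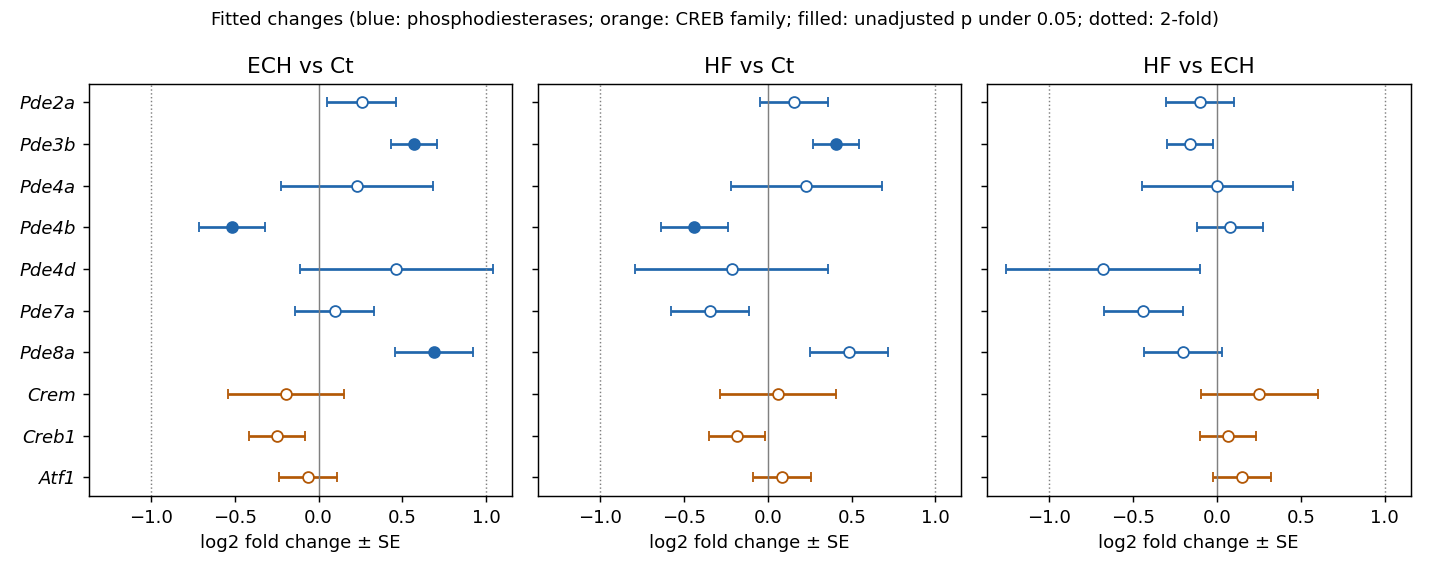
Fitted log2 fold change (x axis, ± SE) of the 10 genes in ECH vs Ct, HF vs Ct and HF vs ECH; blue marks phosphodiesterases, orange CREB family factors, filled points an unadjusted p under 0.05 and dotted lines a 2-fold change. Filled points are Pde3b, Pde4b and Pde8a in ECH vs Ct and Pde3b and Pde4b in HF vs Ct, all inside the 2-fold lines.

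The 3 genes with the lowest p were set beside the genes whose log2 CPM followed theirs most closely over the 12 libraries, among 14607 others. Such r values, chosen as the highest of many, describe these libraries, which share groups and label sets. For Pde3b these were Itgb5, an integrin chain (r = 0.92), Acat2, a thiolase of lipid metabolism (0.91), and Gpnmb, a glycoprotein of lipid-laden Mφ (0.90), and Gpnmb averaged 11.1 CPM in Ct, 285.0 in ECH and 207 in HF. For Pde8a they were Vps8 (0.96), a subunit of an endosomal tethering complex, Sgpl1 (0.94), the lyase of sphingosine phosphate, and Nucb1 (0.94). For Pde4b they were the small nucleolar RNA Snora70 (0.95), Icam1 (0.94), an adhesion molecule induced by inflammatory signals, and Batf (0.94), a leucine zipper factor, and Icam1 averaged 351 CPM in Ct, 167 in ECH and 179 in HF.

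The rest of the pathway was read from 8 lists of 95 genes, of which 79 were tested. In ECH vs Ct 1 gene was called, in HF vs Ct 1 and in HF vs ECH 0. Of the 79, 20.3, 31.6 and 13.9% had an unadjusted p under 0.05, beside 11.9, 16.1 and 7.98% of all genes tested. Those lower at that p numbered 9, 18 and 8, and 6, 8 and 2 of these came from the list of CREB target genes alone. Among 12 receptors and G proteins upstream of cAMP, Adrb1, the β1-adrenergic receptor that isoproterenol binds, averaged 19.8 ± 9.15 CPM in Ct, 7.68 ± 1.15 in ECH and 4.96 ± 0.836 in HF (SD, n = 4 each) and was lower in each isoproterenol library than in each Ct library. Adrb1 fell by 1.99 on the log2 scale in HF vs Ct (SE 0.31, adjusted p = 0.0159 in edgeR) and gave -1.37 in ECH vs Ct (adjusted p = 0.0732). The call was lost without HF 2 or HF 3. Of 16 CREB target genes, Thbs1, a matrix glycoprotein, was called higher in ECH vs Ct, with 72.7 ± 23.4 CPM in Ct, 279.9 ± 65.4 in ECH and 154 ± 74.5 in HF (log2 difference 1.94 ± 0.32, adjusted p = 0.0202 in edgeR), and this call was lost without Ct 1, Ct 4 or ECH 3 and with the label set in the fit. Of the same list, 14 were lower on average in ECH and 13 in HF than in Ct, 6 and 8 of them with an unadjusted p under 0.05. Over all 14608 genes tested, 7141 and 7473 were lower, and 5.89% and 8.72% were lower with an unadjusted p under 0.05. Fos and Junb are in the CREB target list and in the dissociation-response list.

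In the other 6 lists no gene was called. Of 5 other cAMP phosphodiesterases tested, Pde7b, the closest relative of Pde7a, averaged 4.22 CPM in Ct, 11.2 in ECH and 6.50 in HF (ECH vs Ct 1.41 ± 0.38, adjusted p = 0.134 in edgeR), and Pde1b and Pde8b gave -1.09 and -0.78 in HF vs Ct (adjusted p = 0.219 and 0.303). Pde9a, a cGMP phosphodiesterase, was near 0 in each group, with at most 131 counts in a library. Of 5 adenylyl cyclases, which make cAMP, Adcy3 averaged 6.44 CPM in Ct, 18.8 in ECH and 23.3 in HF, with all 8 isoproterenol libraries above the Ct libraries (1.55 ± 0.44 and 1.86 ± 0.44, adjusted p = 0.158 and 0.0886 in edgeR), and Adcy7 averaged 338, 298 and 274 CPM (HF vs Ct adjusted p = 0.231). Of 11 cAMP effectors, Prkar1a, a regulatory subunit of protein kinase A, averaged 325 CPM in Ct, 397 in ECH and 445 in HF (HF vs Ct 0.45 ± 0.11, adjusted p = 0.1), Prkar2b gave 0.71 in HF vs ECH and Pkib, an inhibitor of the kinase, -0.55 in HF vs Ct. Of 10 A-kinase anchoring proteins, Akap13 gave -0.50 in HF vs Ct, Akap9 -0.53 in ECH vs Ct and Akap7 -0.86 in HF vs ECH (adjusted p = 0.172, 0.249 and 0.564). Of 18 CREB cofactors and relatives, Sik1, a kinase that holds CREB coactivators in the cytoplasm, averaged 44.0 CPM in Ct, 48.1 in ECH and 18.4 in HF (HF vs ECH -1.39 ± 0.31, adjusted p = 0.491), Crebbp, the coactivator named for binding CREB, gave -0.70 and Creb3 0.52 in HF vs Ct (adjusted p = 0.126 and 0.172).

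**Figure D5:**
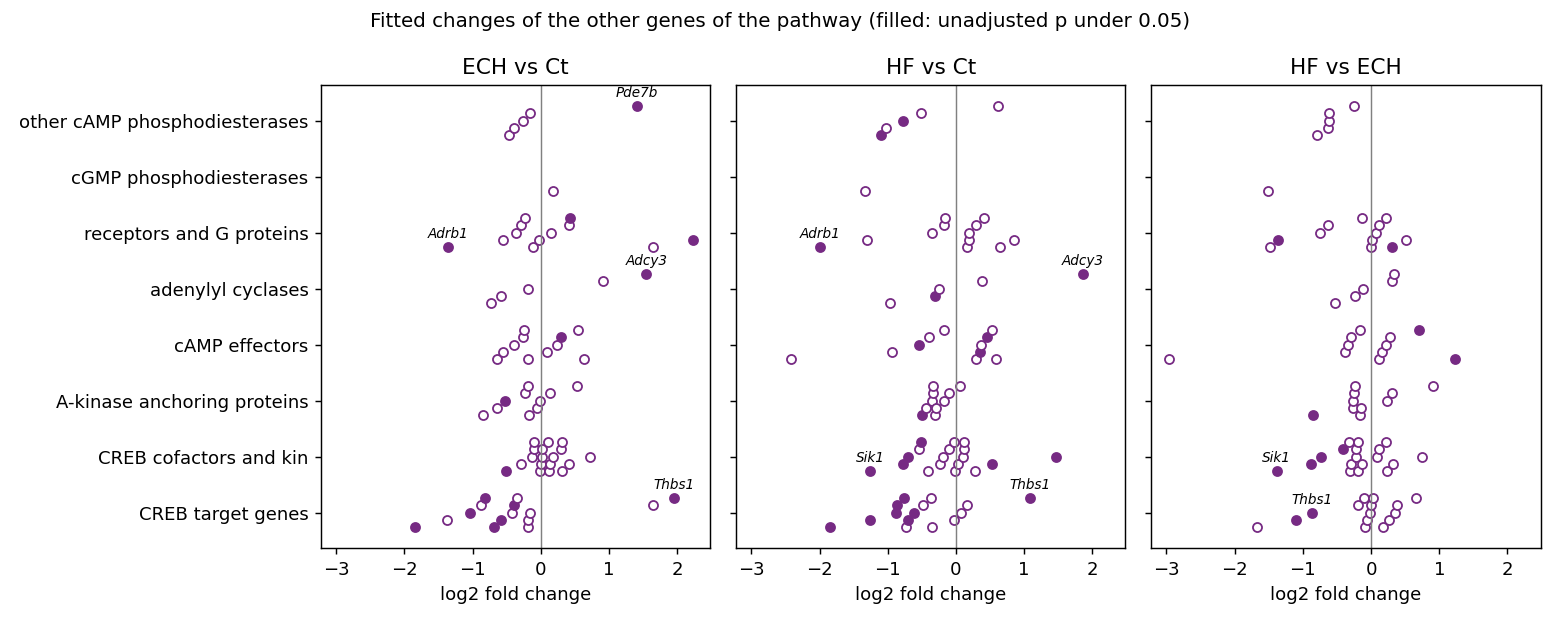
Fitted log2 fold change (x axis) of 77 tested genes of the 8 pathway lists (y axis) in the 3 comparisons; filled points have an unadjusted p under 0.05, and Pde9a and Ppargc1a, both near 0 CPM in a group, are not drawn. Adrb1 lies lowest among the receptors in ECH vs Ct and HF vs Ct, and in HF vs Ct the filled CREB target genes lie to the left but for Thbs1.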

How the data were processed

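RNA of 12 Mφ libraries, 4 per group, was analysed; groups came from the treatment in the labels. The authors made cDNA with SMART-Seq v4, sequenced it as read pairs on a NextSeq 500, trimmed with Trimmomatic (reads under 40 bp removed), aligned with TopHat2 to mm10 and counted genes with featureCounts. The deposited values are raw counts per gene symbol; for software versions, annotation and strand setting nothing was stated.

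Low genes were removed (filterByExpr in edgeR 4.0.16, R 4.3.3), leaving 14608, and counts were scaled by TMM. Levels are TMM-scaled CPM, or RPKM after division by GENCODE M21 exon length. One edgeR quasi-likelihood fit of the 12 libraries gave the 3 comparisons, with Benjamini-Hochberg adjustment over all genes tested; a gene was called at an adjusted p under 0.05 and at least 2-fold. Totals were 88466559 to 111180291 counts per library. The kit was one for very low RNA input, and how many RNA molecules the counts stand for is not stated, so the totals alone do not give the precision.

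The members and lists were chosen with earlier results of these data known. Named were all 10 members, called pathway genes, otherwise up to 3 genes per list with the lowest unadjusted p under 0.05, and the 3 genes with the highest r (log2 of CPM + 0.1) for the 3 members with the lowest p; Cd14 and Fcgr1 (sort markers), Fos, Junb, Jun and Ppargc1a were named outside this rule, after their values were seen. Alternatives were DESeq2 1.42.0, limma-voom (limma 3.58.1), the likelihood ratio test, RLE scaling, other filters and thresholds, subsets of libraries, and the replicate number or label set as a term.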

Additional observations from a re-analysis of the deposited data

Results flagged for a closer look

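Of 30 groups of 4 libraries (10 genes in 3 groups), 5 held a library whose gap to its nearest neighbour, as a share of the range of the group, was over Dixon's critical value; chance alone gives about 1 in 20 groups. Pde2a was high in ECH 4, at 57.1 CPM against 34.7 to 38.5 in the other ECH libraries, and high in HF 2, at 54.9 CPM against 32.6 to 34.4. HF 2 was also high for Pde4b, at 153 CPM against 110.0 to 115. Pde3b was low in ECH 4, at 136 CPM against 153 to 156. Atf1 was low in Ct 4, at 28.9 CPM against 38.9 to 40.7, the library that also had the lowest Pde4b and the highest Pde8a of the Ct group.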

How the results depend on the processing

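Of 680 values of the 10 genes under the alternatives, 648 kept their direction and their side of the threshold, 31 reversed and 1 newly passed. Some alternatives could hardly move a log2 difference, such as leaving out a library of the group not compared. For Pde3b in ECH vs Ct, it was 0.567 without HF 1 against 0.566 in the main fit. The 648 is therefore not a measure of stability. Pde3b kept its sign in both comparisons with Ct (0.47 to 0.64 in ECH, adjusted p 0.00675 to 0.795; 0.31 to 0.50 in HF, 0.0743 to 0.363), as did Pde8a (0.51 to 0.90, adjusted p 0.113 to 0.947 in ECH) and Pde4b (-0.65 to -0.37, adjusted p 0.168 to 0.951 in ECH). The number of the 10 genes called stayed at 0 except in HF vs ECH with label set B only, where it was 1 (Crem); with any library left out it was 0 in each comparison.

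Reversed log2 differences were, in ECH vs Ct, Pde4a at -0.019 (limma-voom) and -0.13 (without Ct 2 and HF 1), and Crem at 0.33 and Atf1 at 0.099 (label set as a covariate), or 0.32 and 0.091 (same label set only); and in HF vs Ct, Pde2a at -0.20 (label set as a covariate), Pde4a at -0.047 and Crem at -0.014 (without Ct 2 and HF 1), and Crem at -0.029 (limma-voom). With 1 library left out at a time, values that crossed 0 ranged, in ECH vs Ct, from -0.12 to 0.52 (Pde4a), -0.044 to 0.31 (Pde7a), -0.50 to 0.14 (Crem) and -0.17 to 0.012 (Atf1); in HF vs Ct, from -0.052 to 0.24 (Pde2a), -0.12 to 0.53 (Pde4a), -0.56 to 0.13 (Pde4d), -0.085 to 0.39 (Crem) and -0.020 to 0.17 (Atf1); and in HF vs ECH, from -0.31 to 0.087 (Pde2a), -0.10 to 0.081 (Pde4a), -0.049 to 0.19 (Pde4b) and -0.014 to 0.15 (Creb1).

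Over all genes, 52 were called in ECH vs Ct (39 higher); DESeq2 called 248 (131 higher), the likelihood ratio test 218, limma-voom 84 (50 higher), a fit of only those 2 groups 8, the label set as a covariate 22, the same label set only 1 and an adjusted p under 0.1 105, and 11 (without Ct 1) to 95 (without Ct 3) with 1 library left out. In HF vs Ct 55 were called (39 higher), against 333 (154 higher), 273 (137 higher), 130 (66 higher), 208 (label set as a covariate), 114 (adjusted p under 0.1) and 15 to 103 with 1 library left out (without Ct 1 and without Ct 3). HF vs ECH gave 0, against 47 by DESeq2, 48 by the likelihood ratio test, 272 with the label set as a covariate and 370 in label set B, and 0 with any library left out. Of the pathway lists, 1 gene was called in ECH vs Ct, against 6 (DESeq2), 6 (likelihood ratio test), 2 (limma-voom), 0 (label set as a covariate, same label set only), 3 (adjusted p under 0.1) and 0 to 1 with 1 library left out; 1 in HF vs Ct, against 6, 6, 2 (only those groups in the fit), 3 (label set as a covariate), 2 (adjusted p under 0.1) and 0 to 1; and 0 in HF vs ECH, against 1 (DESeq2), 1 (likelihood ratio test), 5 (label set as a covariate) and 7 (label set B only).

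Same-numbered libraries did not deviate together (r -0.076 to 0.083 over 14608 genes), so the numbers do not pair them; with the replicate number as a block, 22 genes were called in ECH vs Ct and 18 in HF vs Ct, the pathway lists gave 0 and 0, and 0 of the 10 genes were called. The same label set could not be fitted for HF vs Ct, which shares none. The cause of these changes was not tested. Pde4d, at 59 counts in HF 1, is the gene with the least depth.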
